A study of Mus musculus with 3 samples.

Results

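The G1 cyclins and their kinases were taken as 8 genes, fixed by name: the D cyclins Ccnd1, Ccnd2 and Ccnd3, the E cyclins Ccne1 and Ccne2, and the kinases Cdk2, Cdk4 and Cdk6. All 8 were found by symbol among the 21887 protein-coding genes of the RefSeq annotation of GRCm38, the assembly behind mm10. A window of open chromatin was counted for a gene when its midpoint lay inside the gene or within 10 kb of it, and 16 of 13500 windows met that rule. The windows come from ATAC-seq, which uses the transposase Tn5 to tag accessible DNA with sequencing adapters. The cells were freed with collagenase from the apical part of first molars of C57BL/6 mice at postnatal day 7.5. The 3 libraries, each from 5000 cells, comprised 2 controls of genotype Arid1a fl/fl and 1 mutant of genotype Gli1-CreER;Arid1a fl/fl, and per the labels tamoxifen was injected at postnatal day 3.5 in both. The floxed Arid1a allele is thus common to both, and only the mutant carries the CreER driver, which tamoxifen activates in cells that express Gli1. The labels do not tell how many mice went into each library. Arid1a encodes a DNA-binding component of the SWI/SNF family of chromatin remodellers. The windows and the motif sites in them were deposited as 1 list over all libraries, with no value per library. Mutant and control were therefore not compared. Sequencing depth per window is unknown, and the values below are properties of the listed sequence with no replicate error.

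The D cyclins bind Cdk4 and Cdk6 in early G1 when growth signals are present, and the complexes phosphorylate the retinoblastoma protein. This frees E2F factors, which switch on genes of S phase, among them the E cyclins. Cyclin E with Cdk2 then drives the cell past the point of commitment to DNA replication. Cells that leave the cycle to differentiate, as progenitors of the tooth root do when they become odontoblasts, must hold these kinases in check. Plagl1, also called Zac1, is a zinc finger transcription factor known for restraining proliferation, and the series concerns its place between Arid1a and hedgehog signalling in that arrest.

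The sequences that carry the motif result are the sites of the Plagl1 motif in windows of the members. Each site below is written 5′ to 3′ on the strand that matches the motif, with motif positions 4 to 7, counted from 1 at its 5′ end, in capitals. Those positions hold GGGG or GAGG. The highest-scoring site of each window that held any is shown, in mm10 coordinates.
Ccnd1, chr7:144941534-144941543, plus strand: aaaGGGGctc
Ccnd3, chr17:47511376-47511385, plus strand: tcaGGGGccc
Ccne1 near its start, chr7:38107640-38107649, minus strand: cggGAGGcca
Ccne1 upstream, chr7:38112204-38112213, plus strand: cctGGGGccc
Cdk2 near its start, chr10:128704860-128704869, plus strand: agcGGGGccc
Cdk2 beyond the gene, chr10:128696185-128696194, plus strand: cctGGGGctc
Cdk4, chr10:127063615-127063624, minus strand: agaGAGGccc

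Every member had at least 1 window inside the gene or within 10 kb (8 of 8). Over all protein-coding genes the share was 59.5%. Ccnd3 had 6 windows, Ccne1, Cdk2 and Cdk4 had 2 each, and Ccnd1, Ccnd2, Ccne2 and Cdk6 had 1 each. The median was 1.5 windows per member, against 1 per protein-coding gene. At least 2 windows were held by 21.2% of protein-coding genes. A count of 6 or more, a cutoff taken at the count of Ccnd3, was held by 24 genes (0.11%). Counts were not adjusted for gene length, and the members span 3.75 kb (Cdk4) to 190 kb (Cdk6), around a median of 12.1 kb against 17.2 kb for all protein-coding genes. Per 10 kb of gene with its flanks, Cdk4 had 0.842 windows, Cdk2 0.738, Ccne1 0.678 and Ccnd3 0.523, while Cdk6 had 0.0476. By this measure Cdk4, Cdk2 and Ccne1 stood above Ccnd3, and the longest member, Cdk6, had the lowest density. The 10 kb flanks weigh most in short genes, and 1 window each of Cdk4 and Cdk2 lay at a neighbouring gene's end. Counted for the nearest protein-coding gene alone, Cdk4 and Cdk2 kept 1 window each, Ccne1 2 and Ccnd3 5. The place of Cdk4 and Cdk2 above Ccnd3 thus rests on the windows at neighbours.

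**Figure D1:**
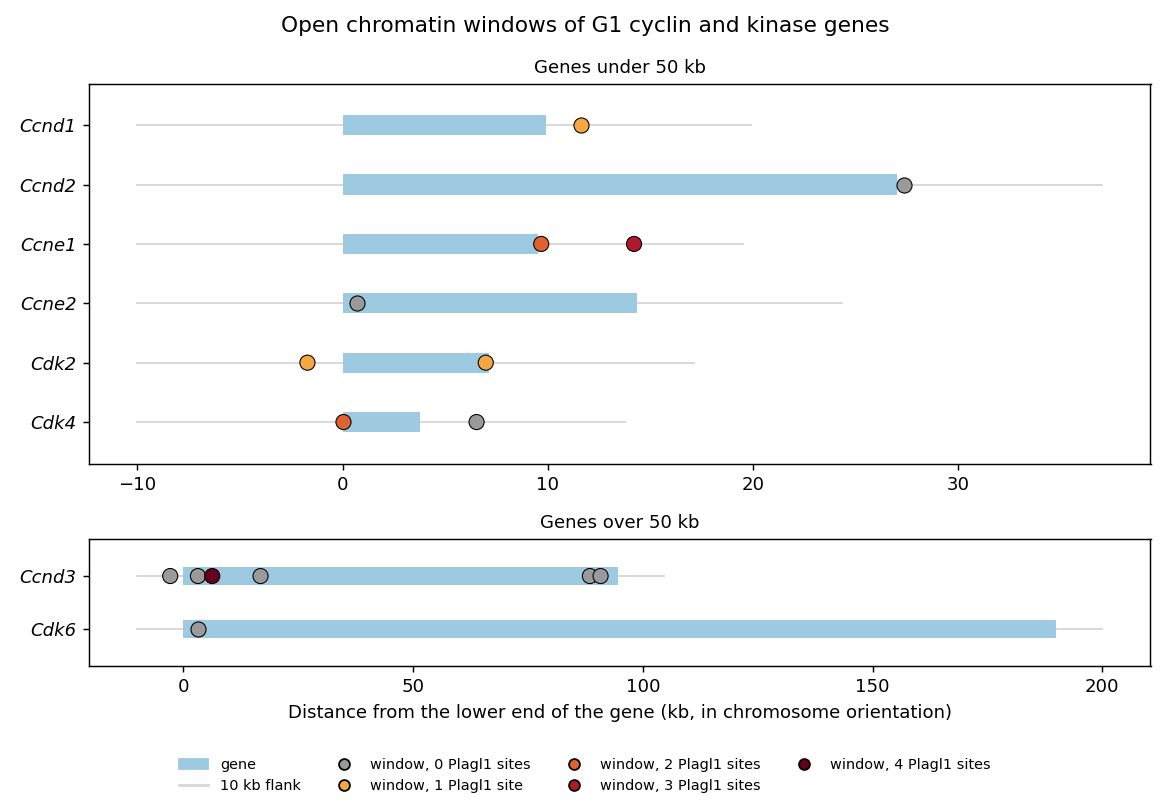
Windows of open chromatin (circles) on the 8 genes (blue bars) and their 10 kb flanks (grey lines), plotted by distance in kb from the lower end of each gene, with the colour of a circle giving its number of Plagl1 motif sites. Ccnd3 holds 6 windows with all 4 of its sites in a single one, and the only window of Cdk6 lies near its lower end.

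A window within 1 kb of a gene end was present at 5 of 8 members (Ccnd2, Ccne1, Ccne2, Cdk2 and Cdk4), against 46.6% of protein-coding genes. Ccnd3 and Cdk6 had none there, but each had a window within 1 kb of a start in the RefSeq promoter table, at a position inside the gene. Such a window lay at 35.8% of all 32851 starts in that table. Ccnd1 alone had neither in these data, and its promoter was not in the table. In all, 7 windows lay at a member's own end or start, 3 lay within 1 kb of the end of a neighbouring protein-coding gene, and 6 lay away from gene ends. The farthest counted window outside a gene was that of Ccne1 at 4699 bp. The nearest ones left out lay 11620 bp from Ccnd3, 12924 bp from Ccne1 and 13011 bp from Cdk6.

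Among the D cyclins, the partners of Cdk4 and Cdk6, Ccnd1 (chr7:144929931-144939831) had its window at chr7:144941456-144941656, 1725 bp beyond the higher end of the gene. That window had a GC content of 64.7% and 6.5 CpG per 100 base steps, and held 1 Plagl1 site. Ccnd2 (chr6:127125162-127152188) had a window at chr6:127152403-127152603, 315 bp beyond its higher end and inside the noncoding gene 9330179D12Rik. It had 60.7% GC and 5 CpG per 100 steps, and no site. The 2 cyclin D genes were thus alike in having a single window just past the higher end and outside the gene, and differed in distance and in the site.

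Ccnd3 (chr17:47505051-47599689, read on the plus strand) had windows in 2 groups separated by 71693 bp. The lower group began at chr17:47502091-47502291, 2860 bp before the gene and 130 bp from the end of Taf8, which encodes a subunit of the general transcription factor TFIID. Of the other windows in that group, chr17:47508128-47508328 lay 3177 bp inside the gene, chr17:47511237-47511437 lay 6286 bp inside and chr17:47521749-47521949 lay 16798 bp inside. None of these was within 1 kb of the upstream annotated start of Ccnd3. In the higher group, chr17:47593442-47593642 had its midpoint 75 bp past the downstream annotated start of Ccnd3, and chr17:47595759-47595959 lay 2392 bp past it. The window at the downstream start had 71.6% GC and 13.5 CpG per 100 steps, above 82.5% of all windows in CpG. The windows at 3177 bp and 2392 bp were poor in CpG, with 1.5 and 2 per 100 steps and 48.8% and 54.7% GC. So within Ccnd3, the window at the downstream start and the window shared with Taf8 (9 CpG per 100 steps) had the most CpG. Only the window 6286 bp inside the gene held Plagl1 sites, 4 in number, and 5 Ccnd3 windows held none. The 4 sites overlap in pairs and make up 2 stretches when overlapping sites are merged. A window with 4 sites or more, a cutoff taken at the count of this window, was found in 40 of 13500 cases (0.296%). Overlapping sites were counted singly.

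Of the E cyclins, the partners of Cdk2, Ccne1 (chr7:38097984-38107490, minus strand) had 2 windows, both upstream of its start. The nearer, chr7:38107565-38107765, had its midpoint 175 bp upstream, 78.1% GC and 13 CpG per 100 steps. Its GC content was above that of 91.2% of all windows. The farther, chr7:38112089-38112289, lay 4699 bp upstream and had 55.2% GC with 1 CpG per 100 steps, and 3.08% of all windows had fewer. If C and G are taken as equally frequent, the ratio of observed to expected CpG was 0.848 in the nearer window and 0.131 in the farther. The nearer held 2 Plagl1 sites and the farther 3, so that both a CpG-rich and a CpG-poor window of the same gene carried the motif. A count of 3 sites or more, a cutoff taken at the count of the farther window, was found in 1.5% of windows. Ccne2 (chr4:11190433-11204779) had 1 window, chr4:11191027-11191227, 694 bp inside its lower end and 103 bp from an end of the noncoding gene A630034I12Rik. It had 74.6% GC and 16.5 CpG per 100 steps, above 95.3% of all windows in CpG, and an observed to expected ratio of 1.18. It held no Plagl1 site. The windows nearest to Ccne1 and Ccne2 were thus both rich in CpG, and only that of Ccne1 had the motif.

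Among the kinases, Cdk4 (chr10:127063535-127067288, plus strand) had a window across its annotated start, chr10:127063479-127063679, with the midpoint 44 bp past the start. It had 69.2% GC, 9 CpG per 100 steps and 2 Plagl1 sites. The other Cdk4 window, chr10:127069966-127070166, lay 2778 bp beyond the gene, 906 bp from an end of the tetraspanin gene Tspan31 and 415 bp from an end of the noncoding gene A730063M14Rik, and held no site. Cdk2 (chr10:128697938-128705051, minus strand), the partner of cyclin E, had a window at chr10:128704816-128705016, 135 bp past its start, with 65.7% GC, 7.5 CpG per 100 steps and 1 site. That window also lies inside Pmel, a gene of melanosome structure, as the annotation draws it. The other Cdk2 window, chr10:128696125-128696325, lay 1713 bp beyond the gene, 59 bp from an end of Rab5b, a GTPase of early endosomes, and 337 bp from an end of Pmel, and it held 1 site. Cdk6 (chr5:3341004-3531008, plus strand) had a single window, chr5:3344031-3344231, 238 bp past its annotated start and 572 bp from an end of the noncoding gene Gm36470. It had 63.7% GC, 8 CpG per 100 steps and no site. All 3 kinases therefore had a window within 1 kb downstream of an annotated start.

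The promoter sequences, from RefSeq on GRCm38.p6, covered 5 of 8 members with 6 starts, the 2 starts of Ccnd3 included. Each ends 50 bases past the start and is printed 5′ to 3′ in the direction of transcription. That of Ccne1 is shown because 176 of its bases lie in the window and carry both deposited sites, with the matches of the Plagl1 motif in capitals.
Ccne1, chr7:38107441-38107740, minus strand: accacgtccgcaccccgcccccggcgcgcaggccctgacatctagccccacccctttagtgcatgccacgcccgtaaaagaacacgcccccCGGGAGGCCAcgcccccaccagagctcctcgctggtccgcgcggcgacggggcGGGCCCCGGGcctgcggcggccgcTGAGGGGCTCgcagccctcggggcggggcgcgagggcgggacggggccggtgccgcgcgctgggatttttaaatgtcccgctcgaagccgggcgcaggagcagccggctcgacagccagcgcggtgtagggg
That of Cdk4 is shown for its E-boxes, in capitals.
Cdk4, chr10:127063285-127063584, plus strand: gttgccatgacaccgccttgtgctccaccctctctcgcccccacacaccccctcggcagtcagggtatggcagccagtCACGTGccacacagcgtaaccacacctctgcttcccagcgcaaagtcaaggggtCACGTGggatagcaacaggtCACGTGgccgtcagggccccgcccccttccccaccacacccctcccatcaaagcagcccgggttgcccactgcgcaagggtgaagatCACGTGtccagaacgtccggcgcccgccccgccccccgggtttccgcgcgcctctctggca
The downstream promoter of Ccnd3 is shown with the 75 bases that lie in the window in capitals.
Ccnd3, chr17:47593217-47593516, plus strand: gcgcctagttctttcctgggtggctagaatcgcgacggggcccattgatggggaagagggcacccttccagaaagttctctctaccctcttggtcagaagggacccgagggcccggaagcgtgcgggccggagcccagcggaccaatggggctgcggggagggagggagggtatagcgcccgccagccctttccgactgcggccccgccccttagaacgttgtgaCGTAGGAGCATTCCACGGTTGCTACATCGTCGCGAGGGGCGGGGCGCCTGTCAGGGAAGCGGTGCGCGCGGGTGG
That of Cdk6 is shown because its Plagl1 matches, in capitals, lie outside all windows.
Cdk6, chr5:3343643-3343942, plus strand: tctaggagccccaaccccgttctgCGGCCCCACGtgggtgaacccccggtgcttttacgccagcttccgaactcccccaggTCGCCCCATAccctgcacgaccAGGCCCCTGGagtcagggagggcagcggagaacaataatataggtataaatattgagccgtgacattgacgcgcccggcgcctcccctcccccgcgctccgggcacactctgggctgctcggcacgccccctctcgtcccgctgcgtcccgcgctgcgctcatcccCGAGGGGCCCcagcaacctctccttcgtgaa

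The Plagl1 motif was searched in these promoters with the scores recovered from the deposited sites, counting a match at or above the lowest deposited score of 5.51. By that rule 39.3% of all promoter sequences had a match. The member promoters had 59.3 to 76% GC, against a median of 52.7% over all promoter sequences. Their CpG per 100 steps ran from 5.02 to 13.7, against a median of 2.34. The shares of promoters given here and below were not matched for base composition, which bears on letters made of G and C. Ccne1 had 3 matches, Cdk6 had 4 and Cdk2 had 1, while Cdk4 and both promoters of Ccnd3 had 0. The Cdk4 promoter sequence ends at chr10:127063584, before the deposited Cdk4 sites at chr10:127063610-127063624. In Ccne1 the matches began at -159 and -106, counted from the start, and are the deposited sites, with scores of 6.00 and 5.52. The third began at -82 with a score of 6.06 and crossed the edge of the window, so it is not among the deposited sites. In Cdk6 the matches began at -226, -169, -147 and 19, and the last had a score of 6.82, higher than any deposited site of the members. None of them lay in the window of Cdk6, which starts past the end of the promoter sequence. In Cdk2 the match began at -95 with a score of 6.46, also outside the window, which covers 15 bases of the promoter. The absence of sites from the Cdk6 window thus describes that window and not the promoter beside it.

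Other letters were searched on both strands of the same promoters. The E-box CACGTG, which is recognised by Myc and other helix-loop-helix factors, occurred 4 times in the Cdk4 promoter, at -172, -118, -98 and -11, and once in that of Cdk6. It was found in 7.15% of promoter sequences, and 4 or more times in 8 of 32851 (0.0244%), a count looked up after the value of Cdk4 was seen. The last of the Cdk4 E-boxes lay in the window. The GC box GGGCGG, recognised by Sp factors, occurred 6 times in Cdk2, 4 times in Ccne1, 3 times in Cdk4, 2 times in each promoter of Ccnd3 and 0 times in Cdk6, against 35.7% of promoters with any. A count of 6 or more, a cutoff taken at the count of Cdk2, was found in 1.35%. CCAAT occurred in Cdk2 and at the downstream start of Ccnd3, against 37.4% of promoters. The E2F letters TTTCGCGC, TTTGGCGC, TTTCCCGC and TTTGCCGC together had 1 match, in Cdk2, against 2.26% of promoters with any, and the cyclic AMP response element TGACGTCA had none, against 1.79%. The cores GGGGCCC and GGAGGCCC, which overlap the Plagl1 motif, are found in 6.66% and 2.43% of promoters. GGGGCCC was present in Cdk6, Ccne1, Cdk4 and the downstream promoter of Ccnd3, and GGAGGCCC in none of the 6. The core GGAGGCCC requires a G before GAGGCCC, so its absence does not mean that Plagl1 matches with GAGG were absent. Such matches were tcaGAGGccc in Cdk2 (score 6.46) and cggGAGGcca in Ccne1 (6.00), and the other Plagl1 matches of these promoters had GGGG. A match is a match of letters and no measurement of binding.

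**Figure D2:**
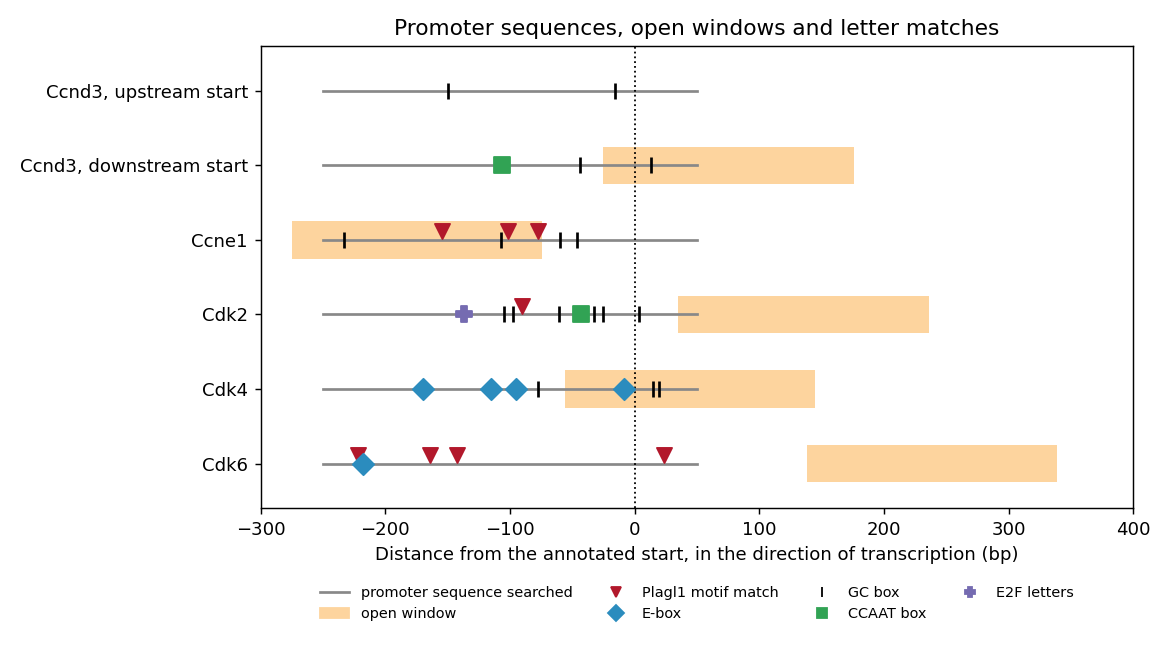
The 6 promoter sequences (grey lines) by distance in bp from the annotated start (dotted line), with open windows as orange bars and letter matches as symbols. The Ccne1 window lies upstream of the start, the Cdk4 and downstream Ccnd3 windows lie across it, and those of Cdk2 and Cdk6 lie past it, with the upstream start of Ccnd3 having none.

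Plagl1 sites were present in 7 of 16 member windows (43.8%, exact Clopper-Pearson 95% interval 19.8 to 70.1, which covers counting error only). Over all windows the share was 32.9%, inside that interval. By gene, 5 of 8 members had a site (Ccnd1, Ccnd3, Ccne1, Cdk2 and Cdk4), against 42.1% of protein-coding genes with a window, and Ccnd2, Ccne2 and Cdk6 had none. The 14 sites were shared out as 5 in Ccne1, 4 in Ccnd3, 2 each in Cdk4 and Cdk2, and 1 in Ccnd1. A total of 4 or more sites, as in Ccne1 and Ccnd3, was held by 0.841% of all 21887 protein-coding genes, those without a window included. The cutoff was taken at the count of Ccnd3, which had 2 when overlapping sites were merged. At least 2 sites stood in 4 of 16 member windows (in Ccnd3, Cdk4 and both of Ccne1), against 7.81% of all windows. Both counts take overlapping sites singly, and the 2 sites of Cdk4 made 1 stretch when merged. The windows at a member's own end or start had a site in 3 of 7 cases, those at a neighbour's end in 1 of 3, and those away from gene ends in 3 of 6. The last class held 8 of the 14 sites. With so few windows these shares do not separate the classes. Their exact intervals overlap, at 9.90 to 81.6%, 0.840 to 90.6% and 11.8 to 88.2% in that order. These intervals treat windows of the same gene as independent.

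The scores of the 14 sites ran from 5.52 to 6.73 with a median of 6.03, against 5.94 for all 5753 sites, whose highest was 7.74. At or above the median of all sites stood 11 of the 14. The best was the minus-strand site of Cdk4 (6.73), which 8.93% of all sites equalled or exceeded. By the best site of each gene, next came Ccne1 with its upstream site (6.59, equalled or exceeded by 11.7%), Ccnd3 (6.53, by 14.1%) and Ccnd1 (6.38, by 20.7%). The best site near the start of Ccne1 scored 6.00 and that of Cdk2 5.99. The lowest was the other site near the start of Ccne1 (5.52), whose sequence occurred 117 times among all sites, while that of Ccnd1 occurred 9 times. All 14 sequences differed from each other. Position 5 of the motif was G in 10 of them and A in 4, against 55.2% G in all sites, and of the sites with A, 3 belong to Ccne1 and 1 to Cdk4.

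**Figure D3:**
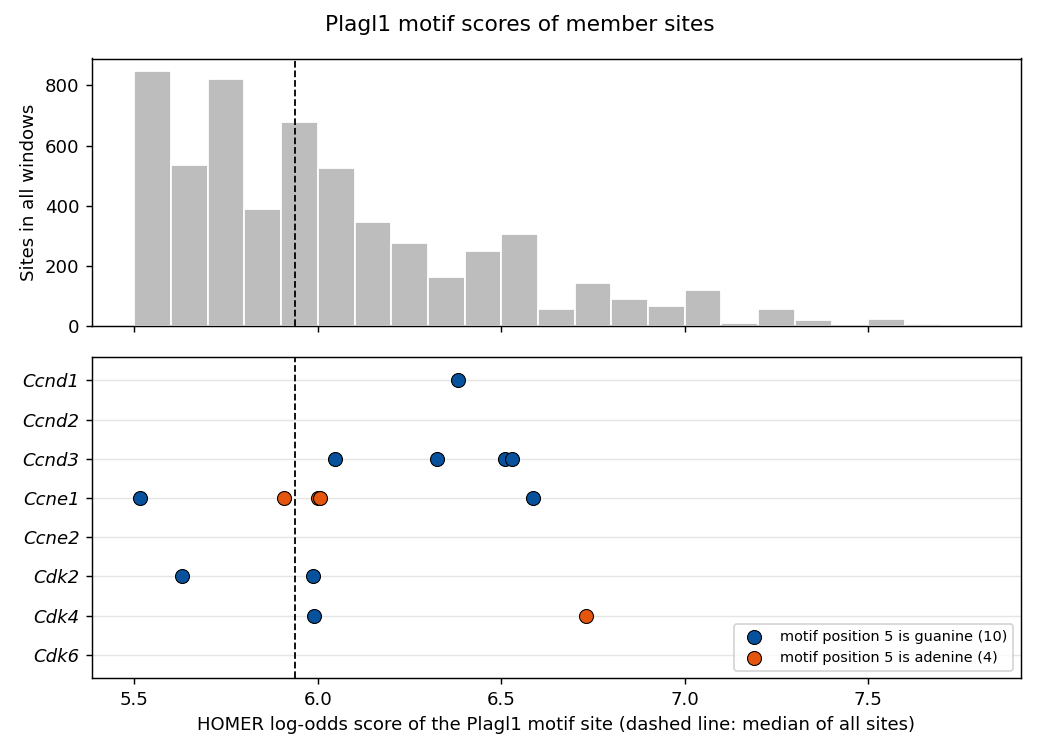
Top, the number of sites in all windows by HOMER log-odds score; bottom, the score of each member site (points, coloured by the base at motif position 5), with the median of all sites as a dashed line. Ccnd3 and Ccnd1 have their sites right of the median, Ccne1 and Cdk2 on both sides, and Ccnd2, Ccne2 and Cdk6 have none.

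Of the 14 sites, 6 overlapped another site, in Ccnd3 and Cdk4. Over all windows 11.6% of sites did. In Ccnd3, a pair on the minus strand was offset by a single base within chr17:47511281-47511291, with scores of 6.51 and 6.33, and a pair on opposite strands lay in chr17:47511376-47511389, with scores of 6.53 and 6.05. In Cdk4, sites of opposite strands lay in chr10:127063610-127063624, with scores of 5.99 and 6.73. The joined stretches, shown to make the overlap visible and written on the plus strand, were as follows.
Ccnd3, lower pair: aggcccccttg
Ccnd3, higher pair: tcaggggcccccgg
Cdk4: tgagggggcctctct
Counted as stretches, the members had 11 places with the motif.

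Member windows had a median GC content of 64.2% (48.8 to 78.1) and a median of 6.5 CpG per 100 steps (1 to 16.5). For all windows the medians were 66.7% and 9, and for windows within 1 kb of a protein-coding gene end 68.2% and 10. The 7 windows at a member's own end or start had medians of 69.2% and 9, and the 6 away from gene ends 58.2% and 3.25. Over the whole series, the 4422 windows not within 1 kb of a protein-coding gene end had medians of 60.2% and 5. In CpG the classes met in the window of Ccnd2, which had 5 per 100 steps at its gene end, below the 6.5 of the Ccnd1 window away from it. The 8 windows of the D cyclins had a median of 4.75 CpG per 100 steps, the 3 of the E cyclins 13 and the 5 of the kinases 7.5. Ccnd3 gave 6 of the 8 D cyclin windows. Windows are not replicates of a condition, and no test was made between these classes.

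**Figure D4:**
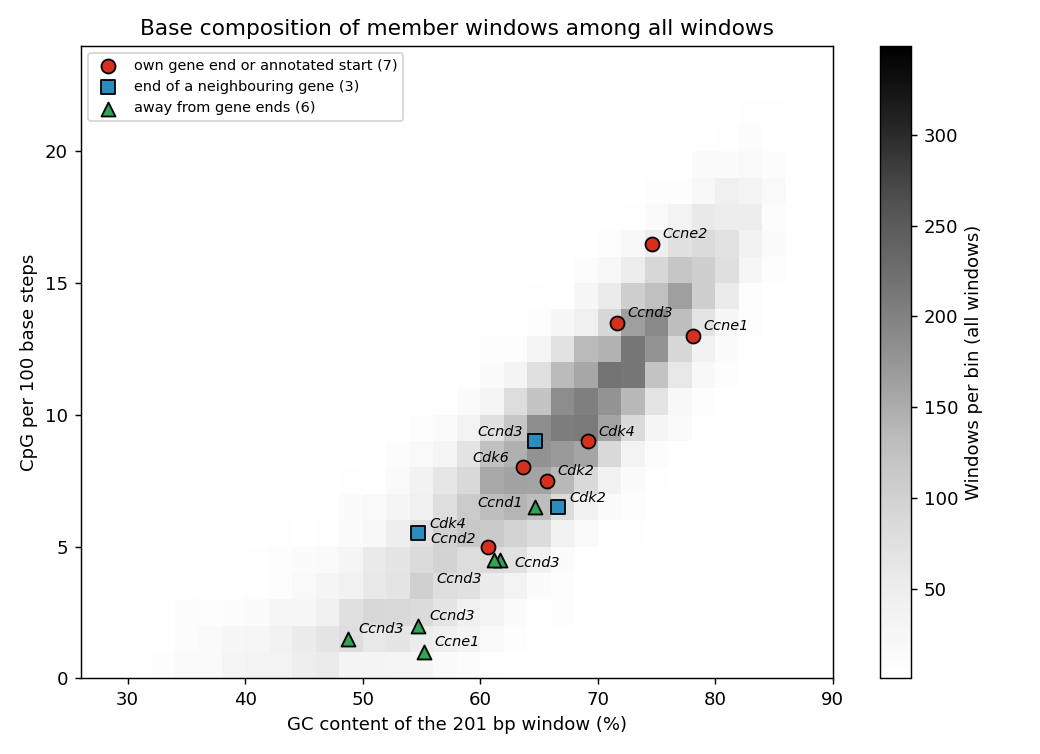
GC content (%) and CpG per 100 base steps of the 16 member windows (symbols by position) over the number of all windows per bin (grey). Windows away from gene ends lie at the lower left, from 48.8 to 64.7% GC. The start windows of Ccne1 and downstream Ccnd3, and the window at the lower end of Ccne2, lie at the upper right.

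Other genes of the same machinery were counted by the same rule to show where the members stand. Of 21 other cyclins, 20 had a window (Ccnb3, a cyclin of meiosis, had none), as did 15 of 16 other Cdk genes (Cdk15 had none), 7 of 7 Cdk inhibitors, 13 of 13 pocket proteins and E2F factors, and 16 of 16 other regulators of the G1 to S step. These lists lay above the 59.5% of all protein-coding genes, as the members did. A window within 1 kb of a gene end was held by 16 of 21, 15 of 16, 6 of 7, 12 of 13 and 13 of 16 genes of these lists, and by 5 of 8 members. Over all protein-coding genes that share was 46.6%. The highest number of windows in any gene of the other lists was 3, below the 6 of Ccnd3. Windows with a Plagl1 site made up 34.6% of the windows of other cyclins, 22.7% of other Cdk genes, 25% of Cdk inhibitors, 29.4% of pocket proteins and E2F factors and 33.3% of the other regulators. Each of these shares lay within the exact interval of the members, which is wide at 16 windows.

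Of all protein-coding genes with a window, 42.1% had a Plagl1 site. Among the 20 other cyclins with a window, 9 had a site. The highest-scoring were in Ccng2 (6.46), Ccnjl (6.45), Ccnf (5.97), Ccny (5.92), Ccnl1 (5.90) and Ccno (5.79). Of the 15 other Cdk genes with a window 4 had a site: Cdk12 (6.12) and Cdk17 (6.06), Cdk14 (6.05) and Cdk10 (5.85). Cdk12 phosphorylates RNA polymerase II. Of the inhibitors, Cdkn1c, which encodes p57, had 2 sites (best 6.24), Cdkn2c, an inhibitor of Cdk4 and Cdk6, had 1 (5.83), and Cdkn1b, which encodes the Cdk2 inhibitor p27, had 1 (5.56). Of the pocket proteins and E2F factors, sites were in E2f5 (6.68), E2f2 (6.51), Rbl1 (6.12) and E2f3 (5.52). Of the 16 other regulators, all with a window, 8 had a site. They were led by Ambra1 (6.66), an adaptor for the degradation of D cyclins, Spdya (6.12), Cul1 and Fbxo31 (6.01 each), Cdc25a (5.93), the phosphatase that activates Cdk2, and Fbxo5 (5.86). The best site of Cdk4, at 6.73, scored above each of these.

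For the series as a whole, the 13500 windows were 201 bp long on 21 chromosomes and 4444 held a site. Of the markers of the labelled tissue, 7 of 8 of dental mesenchyme had a window inside or within 10 kb, beside 59.5% of all protein-coding genes, and 4 of 8 had one within 1 kb of a gene end, beside 46.6%. Inside or within 10 kb the counts were 2 of 8 for dental epithelium, 2 of 6 for immune cells and 2 of 5 for endothelium. Within 1 kb of a gene end they were 1 of 8, 0 of 6 and 2 of 5. The part of other cell types in the members' windows was not tested. Since libraries are pooled, fewer open cells and a weaker opening per cell cannot be told apart, and exons and introns were not analysed here.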

How the data were processed

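ATAC-seq was made from 2 control libraries and 1 mutant library. Reads were handled with FastQC 0.11.8, cutadapt 1.18, Bowtie2 2.3.5, Picard and MACS2 2.1.1 on mm10, per the submitters' processing notes, which do not say how the union list of regions was chosen. The deposited tables came from HOMER's annotatePeaks with a single motif and no gene annotation, per the file headers. The authors' GC value is the fraction of bases that are G or C, deposited per window and turned into percent. Their CpG value divides the number of CpG by the number of base steps in the window, and is given here per 100 steps. The deposited score is a log-odds score of each site, with a log base not given in the sources used here.

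Window midpoints were set against RefSeq genes and annotated starts. Positions count from 1. Of the 5753 deposited sites, 1493 lay inside a promoter sequence, and all of these had the same letters there. Of the 13500 windows, 1543 lay inside one, and all of these had the same GC and CpG (tolerance 0.01 percentage points). Both thus use the same build and offsets where they could be checked. Motif scores were recovered with a largest error of 5.3e-07. The shares of member windows with a Plagl1 site, in all and by position, carry exact Clopper-Pearson 95% intervals. No interval is given for the other shares. Members and lists were chosen with earlier results of these data known. Named were the members, other genes with an end within 1 kb of their windows, and up to 6 genes per list with a site (highest score first) or without a window. 9330179D12Rik, which holds the Ccnd2 window, and the genes of windows beyond 10 kb were named after their values were seen. The scripts were tested on simulated data. Python 3.11.15, numpy 2.4.6, pandas 2.3.3, scipy 1.17.1 and matplotlib 3.10.9 were used.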

Additional observations from a re-analysis of the deposited data

How the results depend on the processing

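The counts depend on the distance at which a window is assigned. With windows inside the gene alone, 5 members had a window, with 9 windows in all, of which 3 held 7 Plagl1 sites. Within 1 kb, 4 member windows held 9 sites, and 7 members had a window. Within 50 kb the count was 30 windows, 17 of them with a site and 27 sites. The other 32 of 41 alternative values over the members stayed within 1.5 times the count, or within the binomial interval of the median GC or CpG. They cover 3 kb, any base in place of the midpoint, the nearest protein-coding gene alone (13 windows), sites at or above the median score (11) and overlapping sites merged (11). For single members 23 of 64 values moved by more than that. With overlapping sites merged, Ccnd3 had 2 in place of 4 and Cdk4 1 in place of 2. No library could be left out, since the tables carry no value per library. No paired analysis was possible because the windows and sites are pooled over libraries. Depth per window is unknown.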

Other observations

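Between 10 and 50 kb from the members lay 14 further windows, of which 10 were within 1 kb of an end of another protein-coding gene and 10 held a Plagl1 site, with 13 sites in all. Over all windows 9078 of 13500 were within 1 kb of a protein-coding gene end, and 32.9% held a site. The genes named here were chosen after their values were seen. The 14 further windows had a median GC content of 70.6% and a median of 10.5 CpG per 100 steps. Neighbours with a window at an end included Tigar, a regulator of glycolysis, 88 bp from the window 15.5 kb from Ccnd2, with a site of score 5.59. Trp53inp1, a p53-induced gene of the stress response, lay 75 bp from the window 34.1 kb from Ccne2, with a site of 5.97. The window 11.6 kb from Ccnd3, 183 bp from an end of the ribosome biogenesis gene Bysl, held 3 sites with a best score of 6.82. Fam133b lay 186 bp from the window 13 kb from Cdk6, with 16.5 CpG per 100 steps and a site of 6.40. Other neighbours had a window at an end with no site: LTO1 at 53 bp, Mettl1 at 65 bp and Ints8 at 161 bp. For Ccne1 the further windows, at 12.9 and 36.6 kb, had no protein-coding gene end nearer than its own.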
